A study of Homo sapiens with 12 samples.

Results

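The response to JQ1 was followed in U87-MG, an established human glioblastoma cell line, in the derivative labelled as having acquired resistance to JQ1. The comparison took the 2 libraries of resistant cells given 1000 nM JQ1 for 24 h against the 2 libraries of resistant cells given the solvent DMSO for 24 h, 4 of the 12 libraries of the series, over all 19093 genes tested. The 2 parental DMSO and 2 parental JQ1 libraries, given the same dose and time, served to test where the response of the resistant line differed. The parental libraries and the 4 remaining libraries, parental and resistant cells with dBET6, also shared the fit. All 12 libraries thus entered the gene filter, the scaling and the estimate of the spread. The growth protocol gives 1 serum-containing medium for U87 cells, and every library was made from polyA RNA. The labels do not say whether the resistant line is 1 clone or was kept in JQ1 until the experiment, nor whether replicate libraries came from different cultures. The spread behind each p-value may therefore be technical.

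JQ1 is a small molecule that occupies the acetyl-lysine pockets of BET proteins, readers of acetylated chromatin that recruit P-TEFb, the kinase that releases paused RNA polymerase II. P-TEFb is itself held inactive by HEXIM1, whose transcription is known to follow BET inhibition and serves as a marker that an inhibitor has acted. In glioblastoma and other tumours BET inhibitors are known for lowering growth-control and inflammatory transcripts, with resistance described in several models.

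The resistant cells still responded broadly. Of 19093 genes 8391 (43.9%) passed the test, an adjusted p under 0.05 in edgeR's quasi-likelihood test with Benjamini-Hochberg adjustment, 3978 higher with JQ1 (20.8%) and 4413 lower (23.1%). By at least 2-fold 1041 genes were higher and 1554 lower, and by at least 16-fold 45 were higher and 51 lower. In parental cells 48.9% of the same genes passed, 22.8% higher and 26.1% lower, and the SD of the log2 fold change over all genes was 0.98 in resistant and 1.10 in parental cells. The response differed between the lines, by the interaction term of the fit, for 1241 genes (6.5%), 692 with a higher log2 fold change in resistant cells (3.62%) and 549 with a lower one (2.88%).

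Library totals were 32235530 to 38753868 estimated counts in genes for the 4 resistant libraries, and the replicates had a Pearson r across genes of 0.994 in DMSO and 0.992 in JQ1 (genes are not independent replicates). The RNA make-up moved with JQ1: the 50 most abundant genes took 12.4% and 12.9% of counts in DMSO and 18.0% and 18.2% in JQ1, and mitochondrially encoded mRNA took 1.76% and 2.13% against 2.70% and 2.35%. All fold changes below are therefore relative to the bulk of genes: the median gene moved by 0.01 with TMM scaling, by -0.17 with total counts and by -0.56 with scaling to mitochondrially encoded mRNA. Of the genes that passed, 47.4% were higher with TMM, 28.3% with total counts and 6.67% with mitochondrial scaling. Of 14 U87 markers 11 had at least 1 TPM in some resistant library (SOX2, SOX9 and IL13RA2 did not), while of 11 microglia and macrophage markers 9 were below 1 TPM in the 4 libraries (P2RY12, TYROBP, C1QA and C1QB at 0). The list summed to 277 to 279 TPM in DMSO and 293 to 316 TPM in JQ1, mostly CD68, a lysosomal protein also made outside macrophages (256 and 259 to 312 and 289 TPM), while CSF1R, the receptor of CSF1, stood at 20.6 and 20.3 against 3.29 and 3.60 TPM. Their part in the results was not tested.

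Levels are given as CPM (counts scaled to a common library size, with TMM factors) in the 2 DMSO and then the 2 JQ1 libraries, and changes as log2 fold changes ± SE with 2 libraries a group. A set of 29 gene lists is described by counts and medians, to be read against the 20.8% and 23.1% of all genes and their median of 0.01. For the difference between the lines the shares of all genes were 3.62% higher and 2.88% lower. These shares vary with class and level. Of protein-coding genes 22.9% were higher and 27.6% lower with JQ1. The least abundant of 5 equal classes of genes had 4.82% and 5.73%, the most abundant 34.6% and 25.2%. The lists were not matched to genes of like level. In the list of BET proteins and P-TEFb regulators 8 of 17 members rose and 2 fell (median 0.20, or -0.38 with mitochondrial scaling, where all genes were at -0.56). With total counts 5 rose and 4 fell, and with mitochondrial scaling 3 rose and 5 fell. The 2 that fell became 1 without resistant JQ1 replicate 2 and none without any other resistant library. HEXIM1 stood at 47.0 and 51.0 CPM in DMSO and at 207 and 201 CPM in JQ1. Its rise of 2.06 ± 0.10 was smaller than the 2.53 of parental cells by 0.47 ± 0.13 (adjusted p = 0.032 for the difference), a difference that did not pass once any of 7 of the 8 libraries was left out. BRD2, a BET protein, went from 69.7 and 74.3 to 292 and 296 CPM. SERPINI1, the neuroserpin gene that marks BET inhibition in several cell types, went from 0.380 and 0.287 to 1.70 and 1.74 CPM. BRD2 and SERPINI1 were separated between the groups by wide gaps, and for neither did the response differ between the lines by the test (adjusted p = 0.97 and 0.73). CDK9, the catalytic subunit of P-TEFb, rose by 0.55 ± 0.08 and AFF1, a scaffold of the super elongation complex, by 0.70 ± 0.09, while CDK9 was at -0.02 with mitochondrial scaling. BRD3 did not pass (-0.19 ± 0.09, adjusted p = 0.076), but it passed as lower with total counts (adjusted p = 0.000479), with mitochondrial scaling (0.000847), among genes of at least 10 CPM (0.0405) and when only the compared libraries were fitted (0.00856).

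**Figure D1:**
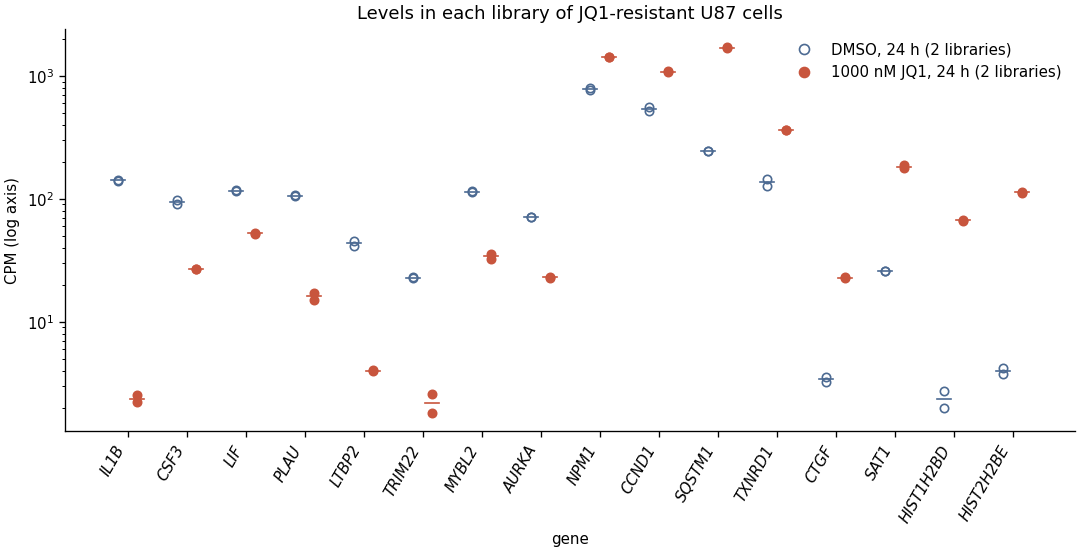
CPM on a log axis for 16 genes in resistant cells, with open circles for the 2 DMSO libraries, filled circles for the 2 JQ1 libraries and short lines for their means. In each of these genes the DMSO and JQ1 libraries do not overlap, from IL1B at 140.2 and 143 against 2.53 and 2.21 to HIST2H2BE at 4.22 and 3.75 against 112 and 114. Over all 19093 genes tested the libraries did not overlap for 6984 higher and 6946 lower genes, so this is not particular to the genes drawn.

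The histone list had the highest median of the 29 lists. Replication-dependent histone mRNAs normally lack a poly(A) tail and are made in S phase, so that a polyA library holds the polyadenylated part of them and the variant histones. Of 19 tested histone genes 16 rose and none fell (median 2.02, or 1.44 with mitochondrial scaling), and in parental cells 16 rose and 2 fell. HIST1H2BD stood at 2.0 and 2.73 CPM in DMSO and at 65.9 and 67.4 in JQ1, a rise of 4.83 ± 0.13 (28.4-fold, adjusted p = 5.72e-21). HIST2H2BE went from 4.22 and 3.75 to 112 and 114 CPM, a 28.2-fold rise. HIST1H2AC went from 9.05 and 9.46 to 146 and 154 CPM. Both replicates of each group lay close together in these 3 genes, which encode H2B and H2A proteins. HIST2H2AA4 went from 15.6 and 15.7 to 212 and 225 CPM. HIST2H3C is outside the histone list and was named for its large rise. It went from 1.12 and 1.34 to 68.2 and 32.9 CPM, a change of 5.37 ± 0.53 with JQ1 replicates that lay far apart. HIST2H2AA4 and HIST2H3C belong to groups of near-identical gene copies between which reads cannot be placed with certainty. H1FX, a linker histone with its own poly(A) signal, rose by 1.96 ± 0.10. The rise of HIST1H2AC was smaller than in parental cells (4.02 against 4.62, difference -0.60 ± 0.14, adjusted p = 0.0062), and did not pass without parental DMSO replicate 1 (adjusted p = 0.0752) or resistant DMSO replicate 2 (adjusted p = 0.0609).

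The promoters of these 3 genes are shown because the members of the list moved together and most hold one motif. CCAAT on either strand (read as ATTGG on the opposite strand) was in 15 of the 17 histone genes with a RefSeq promoter entry (88.2%) and in 39.7% of 27305 genes. It was also in 31 of 39 matched genes of the G2/M list (79.5%), which fell, and in 21 of 27 of the ATF4 list (77.8%), so the motif was not particular to the histone genes. A gene was counted if any of its windows, 250 bases before to 50 after a start, held the motif. Below are the 250 bases before the start on GRCh38.p14, 5′ to 3′ on the gene's strand, with each match in capitals.
HIST1H2BD (chr6:26157871-26158120, plus strand): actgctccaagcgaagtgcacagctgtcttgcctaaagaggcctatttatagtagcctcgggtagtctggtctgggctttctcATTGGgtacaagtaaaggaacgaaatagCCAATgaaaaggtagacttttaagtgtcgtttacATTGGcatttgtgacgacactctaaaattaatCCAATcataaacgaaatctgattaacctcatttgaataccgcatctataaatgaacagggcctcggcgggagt
HIST1H2AC (chr6:26123922-26124171, plus strand): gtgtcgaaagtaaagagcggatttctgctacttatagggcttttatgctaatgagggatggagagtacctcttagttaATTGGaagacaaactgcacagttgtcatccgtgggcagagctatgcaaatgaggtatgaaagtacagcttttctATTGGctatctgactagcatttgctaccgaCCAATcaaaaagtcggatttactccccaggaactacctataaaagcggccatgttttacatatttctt
HIST2H2BE (chr1:149886683-149886932, minus strand): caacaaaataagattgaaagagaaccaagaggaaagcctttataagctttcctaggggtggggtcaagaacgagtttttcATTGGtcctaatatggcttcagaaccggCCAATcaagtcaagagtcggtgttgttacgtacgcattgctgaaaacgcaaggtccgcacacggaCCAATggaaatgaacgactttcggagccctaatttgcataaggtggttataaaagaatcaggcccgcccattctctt
HIST1H2BD, shown for 1 of its 2 windows, has 4 matches there, which begin 167, 139, 105 and 73 bases before the start. HIST1H2AC and HIST2H2BE have 3 each. A match is a string of letters and was not tested as a binding site.

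Cell cycle transcripts fell with few exceptions. Of 47 genes of G2/M and mitosis 46 fell and none rose (median -1.03), of 39 DNA replication genes 34 fell and none rose (median -0.64), and of 20 G1 cyclins, CDKs and inhibitors 16 fell (median -0.57). In parental cells the counts were 46, 36 and 16 lower. AURKA, a mitotic kinase, went from 71.0 and 70.5 to 22.5 and 23.3 CPM. PLK1, another mitotic kinase, went from 114 and 118 to 34.0 and 37.3 CPM, and FOXM1, the transcription factor of the G2/M programme, from 123 and 122 to 39.5 and 45.6 CPM. These genes and CCNA2, the cyclin of S phase and G2 (-1.66 ± 0.09), fell about 3-fold in both replicates. MYBL2, an E2F target, fell by 1.75 on the log2 scale, GINS2 and MCM5 of the replicative helicase by 1.45 and 1.36, E2F2 by 2.29 and E2F1 by 0.60. RBL2, a pocket protein that restrains E2F genes, fell more than in parental cells (-1.03 against -0.51, difference -0.52 ± 0.13, adjusted p = 0.012), and this difference did not pass without resistant DMSO replicate 1 (adjusted p = 0.109) or resistant JQ1 replicate 2 (adjusted p = 0.0795).

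The only members of the G1 list that rose were CCND1 and CDKN1A. CCND1, cyclin D1, went from 556 and 518 to 1098 and 1069 CPM in resistant cells, against 661 and 687 to 635 and 648 CPM in parental cells (difference of the log2 fold changes 1.08 ± 0.12, adjusted p = 6.6e-07). With mitochondrial scaling CCND1 no longer passed in resistant cells (0.43, adjusted p = 0.0705), and its difference between the lines did not pass (0.80, adjusted p = 0.144). CDKN1A, the CDK inhibitor p21, went from 125 and 126 to 324 and 339.7 CPM, and its response did not differ between the lines by the test (0.34 ± 0.13, adjusted p = 0.12). CDK6, a partner of cyclin D1, fell by 0.63 ± 0.12, but not past the threshold on the deposited FPKM (-0.22, adjusted p = 0.412).

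MYC and part of the transcripts of ribosome production rose in resistant cells. MYC, the transcription factor, rose by 1.08 ± 0.09 against 0.50 in parental cells (difference 0.58 ± 0.12, adjusted p = 0.0027). The MYC difference did not pass with mitochondrial scaling (0.31, adjusted p = 0.673). Nor did it pass by limma on the deposited FPKM (adjusted p = 0.0584 and 0.0625 with pseudocounts of 1 and 0.1). Of 29 nucleolar and biosynthetic genes known to respond to MYC 15 rose and 2 fell in resistant cells (median 0.23), whereas 3 rose and 12 fell in parental cells (median -0.11). The difference itself passed for 16 of the 29, each time higher in resistant cells, against 3.62% of all genes. In a fit of genes of at least 10 CPM the difference passed for 13.9%, of which 47.1% were higher. ODC1, the first enzyme of polyamine synthesis, went from 178 and 162 to 555 and 593 CPM in resistant cells and from 188 and 175 to 352 and 394 CPM in parental cells. NPM1, nucleophosmin, went from 799 and 766 to 1423 and 1416 CPM in resistant cells and from 1035 and 900.1 to 1048 and 1209 CPM in parental cells. The JQ1 libraries of the resistant line lay above the other 6 libraries of the comparison for both genes. NOP56, a subunit of box C/D snoRNPs, rose by 0.97 ± 0.08 (difference 0.68 ± 0.12, adjusted p = 0.00037), and RRP12, a factor of ribosome export, by 0.62 ± 0.09 (difference 0.62 ± 0.12, adjusted p = 0.0022). NCL, nucleolin, rose by 0.49 ± 0.09 and its difference of 0.32 ± 0.12 did not pass (adjusted p = 0.12). By limma on FPKM with pseudocounts of 1 and 0.1 the differences of NPM1 (adjusted p = 0.284 and 0.299) and RRP12 (0.0809 and 0.0838) did not pass.

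How many members passed depended on the scaling and on single libraries. In resistant cells 7 rose and 6 fell with total counts, and 1 rose and 12 fell with mitochondrial scaling (median -0.34, where all genes were at -0.56). The difference between the lines passed for 14 with total counts and for none with mitochondrial scaling, where its median was 0.13 against -0.28 for all genes. Without resistant DMSO replicate 2 the difference passed for 5, without resistant JQ1 replicate 2 for 6, without either other resistant library for 11 and 10, and without a parental library for 9 to 12. Members that rose numbered 7 to 12 without 1 resistant library. Of the 24 members with a RefSeq promoter entry 13 (54.2%) held the E-box CACGTG, against 8.77% of 27305 genes. The list was made of genes known to respond to MYC, so this share describes the list and not the response to JQ1. In the wider MYC network 5 of 13 genes rose and 2 fell (median 0.14, but -0.06 with total counts and -0.44 with mitochondrial scaling), and 1 fell without resistant DMSO replicate 2 or resistant JQ1 replicate 1. MXD4 and MXD1, antagonists of MYC, rose by 0.76 ± 0.10 and 0.83 ± 0.11, and MLX, their shared partner, fell by 0.59. MXD4 rose less than in parental cells, where it went up by 1.90 (difference -1.14 ± 0.14, adjusted p = 3.4e-06).

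**Figure D2:**
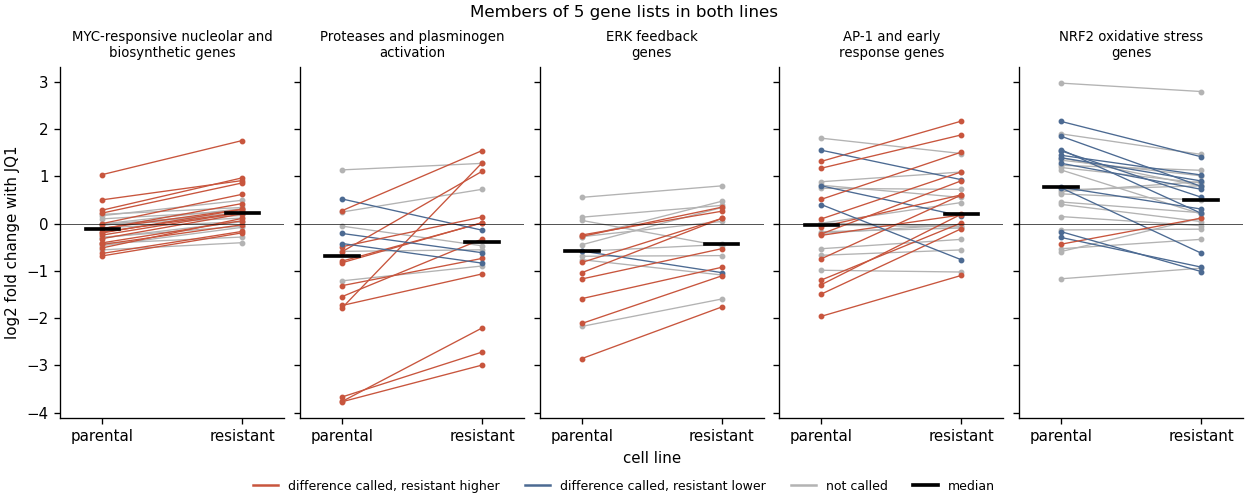
Log2 fold change with JQ1 of each tested member of 5 gene lists in parental (left) and resistant cells (right), joined by a line per gene that is coloured where the difference passed, with thick black bars at the medians. The nucleolar list goes from a median of -0.11 to 0.23 and the NRF2 list from 0.77 to 0.50.

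Cytokine transcripts fell, with the lowest median of the 29 lists. Of 19 tested cytokines and chemokines 14 fell and 2 rose (median -1.81), and IL1B, the inflammatory interleukin-1 beta, fell 59.6-fold in resistant cells (-5.90 ± 0.12, adjusted p = 8.04e-23). IL33, an alarmin, went from 3.26 and 3.30 to 0.350 and 0.289 CPM. CSF3, the granulocyte growth factor, went from 90.7 and 97.1 to 26.9 and 26.7 CPM in resistant cells and from 114 and 144 to 15.7 and 12.9 CPM in parental cells. LIF, which signals through gp130, went from 118 and 116 to 52.1 and 52.8 CPM in resistant cells and from 57.0 and 63.0 to 8.38 and 6.34 CPM in parental cells. The loss of LIF and CSF3 was thus smaller in resistant cells (differences 1.86 ± 0.15 and 1.36 ± 0.15, adjusted p = 1.7e-08 and 1.2e-06). CSF1, the macrophage growth factor, rose by 1.12 ± 0.09.

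NF-kB genes split. Of 22 members 6 rose and 10 fell (median -0.17), whereas 3 rose and 14 fell with total counts. With mitochondrial scaling 1 rose and 15 fell (median -0.75, where all genes were at -0.56). TNFAIP2 went from 1.92 and 1.48 to 0.323 and 0.499 CPM in resistant cells, while in parental cells it went from 24.3 and 28.0 to 44.4 and 41.5 CPM. Its resistant libraries all lay far below the parental ones, and the difference of the responses, -2.76 ± 0.26, passed the test (adjusted p = 9.5e-08). PTGES, prostaglandin E synthase, went from 71.7 and 72.3 to 22.0 and 22.4 CPM and did not pass in parental cells (321 and 376 to 327 and 322 CPM, adjusted p = 0.33). BCL3, an atypical IkB protein, fell by 0.78 ± 0.11 in resistant cells and rose by 0.62 in parental cells. NFKBIZ, another atypical IkB protein, rose by 1.30 ± 0.12 and SOD2, mitochondrial superoxide dismutase, by 0.62 ± 0.08, SOD2 being at 0.04 with mitochondrial scaling. The kappa B motif GGANTTTCC was in 9 of 20 members with a promoter entry (45.0%), against 2.01% of 27305 genes. Known NF-kB targets are part of the list, so this share describes the list and not the response to JQ1.

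Interferon-stimulated genes had 21 of 41 lower and 6 higher (median -0.65). TRIM22, an antiviral factor, went from 23.1 and 22.6 to 1.80 and 2.58 CPM. IFI44L fell by 3.02, OAS3, a sensor of double-stranded RNA, by 1.44 and PARP14 by 1.04 on the log2 scale. SAMHD1, which degrades dNTPs, rose by 1.29 ± 0.09. Among 15 class I HLA and peptide loading genes 3 rose and 5 fell (median -0.15). B2M, the light chain of class I molecules, rose by 0.62 ± 0.09 (0.04 with mitochondrial scaling), and NLRC5, their transactivator, fell by 1.16.

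Matrix genes fell in 21 of 40 cases and rose in 5 (median -0.49), and the 5 became 1 or 2 when a resistant library was left out. COL4A2, a basement membrane collagen, went from 8.03 and 9.51 to 0.135 and 0.0788 CPM. COL1A2 went from 294 and 290.3 to 89.2 and 88 CPM and fell more than in parental cells (-1.72 against -0.96, difference -0.76 ± 0.12, adjusted p = 0.00014). COL6A3 and TNC, tenascin C, fell by 1.33 and 1.26, TNC with its level rebuilt from transcripts to 0.47 of the deposited value only. Of 30 TGF-beta ligands, binding proteins and targets 7 rose and 14 fell (median -0.28). LTBP2, a latent TGF-beta binding protein, fell 10.9-fold (45.2 and 41.7 to 3.96 and 4.02 CPM). LTBP1 fell by 2.08 in resistant and 3.42 in parental cells (difference 1.34 ± 0.13, adjusted p = 1.8e-07). The growth factor GDF5 fell by 1.60 against 2.81 (difference 1.21 ± 0.14, adjusted p = 2.3e-06). TGFB1 itself rose from 239.9 and 258 to 649.5 and 669.7 CPM. ID2, a target of BMP signals, rose by 1.85 against 2.85 in parental cells (difference -1.0 ± 0.14, adjusted p = 3.2e-05).

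YAP/TEAD genes had 6 higher and 8 lower of 22 (median -0.16). CTGF, a matricellular target of YAP and TGF-beta, went from 3.54 and 3.25 to 23.2 and 22.6 CPM in resistant cells and from 7.73 and 8.29 to 23.5 and 24.0 CPM in parental cells. The JQ1 libraries of both lines thus met at one level from different starting levels, and the rise was larger in resistant cells (2.75 against 1.57, difference 1.18 ± 0.14, adjusted p = 3.1e-06). CYR61, a relative of CTGF, rose by 1.43 against 0.83 (difference 0.60 ± 0.13, adjusted p = 0.0038, or 0.0543 without resistant JQ1 replicate 2). Wnt genes went both ways, 7 higher and 12 lower of 37 (median -0.07). WNT5A fell by 2.28 and WNT7B by 1.26, FZD7, a Wnt receptor, rose by 1.32 ± 0.16, and DKK1, a secreted inhibitor, rose by 1.07 ± 0.13 against 0.15 in parental cells (difference 0.91 ± 0.17, adjusted p = 0.0013), with a rise of 0.48 that did not pass under mitochondrial scaling.

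Plasminogen activation and proteases were less lowered in resistant than in parental cells. Of 20 members 5 rose and 10 fell with JQ1 in resistant cells (median -0.40) and 3 rose and 15 fell in parental cells (median -0.70). The difference passed as higher in resistant cells for 12 and as lower for 3 (3.62% and 2.88% of all genes). With mitochondrial scaling it passed as higher for 3 and lower for none. The 3 lower became 2 without parental DMSO replicate 2 and 1 without any one of the 7 other libraries. PLAU, urokinase, went from 107 and 105 to 15.1 and 17.2 CPM in resistant cells and from 199 and 208 to 17.6 and 14.3 CPM in parental cells. SERPINB2, its inhibitor, fell by 2.21 against 3.76 (difference 1.55 ± 0.15, adjusted p = 1.9e-07), and THBD, thrombomodulin, by 3.00 against 3.77 (difference 0.77 ± 0.20, adjusted p = 0.016). The THBD difference did not pass without any one of the 4 resistant libraries, parental DMSO replicate 2 or parental JQ1 replicate 1 (adjusted p = 0.0526 to 0.0763). TIMP1, a metalloproteinase inhibitor, went from 623 and 682 to 1825 and 1975 CPM in resistant cells and from 314 and 368 to 419 and 406 CPM in parental cells. MMP1, an interstitial collagenase named after its values were seen, went from 4.56 and 4.30 to 10.9 and 10.7 CPM in resistant cells and from 17.2 and 14.3 to 4.79 and 4.33 CPM in parental cells. MMP1 thus rose in resistant and fell in parental cells, and TIMP1 rose more in resistant cells (differences 3.07 ± 0.18 and 1.27 ± 0.13, adjusted p = 1.7e-11 and 3.6e-07). SERPINE2, protease nexin 1, rose by 1.27 ± 0.08 with a difference of 0.14 ± 0.12 between the lines (adjusted p = 0.56).

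Receptor tyrosine kinases and their ligands had 14 of 28 lower and 4 higher (median -0.28). The difference between lines was higher for 9 and lower for 2 (3.62% and 2.88% of all genes). With mitochondrial scaling none was higher and 18 were lower, and the difference was higher for 2 and lower for 2. Without resistant DMSO replicate 1 the members that rose numbered 2. HGF, the ligand of MET, went from 107 and 105 to 27.9 and 24.0 CPM, a fall of 2.03 against 2.88 in parental cells (difference 0.86 ± 0.14, adjusted p = 0.00029). PDGFRB fell more in resistant cells (-2.52 against -1.33, difference -1.19 ± 0.20, adjusted p = 0.00037). By limma on the deposited FPKM the PDGFRB difference did not pass (adjusted p = 0.159 and 0.113 with pseudocounts of 1 and 0.1). NRG1, a ligand of ERBB receptors, fell by 2.16 and VEGFA by 1.20. EPHA2, an ephrin receptor, did not pass in resistant cells (6.84 and 7.03 to 6.43 and 5.62 CPM) and fell in parental cells (32.2 and 29.6 to 9.76 and 9.41 CPM). EPHA2 passed as lower in resistant cells with total counts (-0.39, adjusted p = 0.0186) and mitochondrial scaling (-0.78, adjusted p = 0.00257). Its starting level in resistant cells lay below even the parental JQ1 libraries (difference of the responses 1.49 ± 0.18, adjusted p = 4.1e-06).

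The ERK feedback list, genes induced by ERK that dampen it, had 9 of 19 lower and 4 higher (median -0.44, or 0.01 without resistant DMSO replicate 2), against 14 lower and 1 higher in parental cells. The 4 that rose became 1 without resistant JQ1 replicate 2, 1 with total counts and none with mitochondrial scaling. The difference passed as higher for 8 and lower for 1 (3.62% and 2.88% of all genes), and for none with mitochondrial scaling. ETV4, an ETS factor downstream of ERK, fell by 1.77 against 2.86 (difference 1.09 ± 0.17, adjusted p = 0.0001). SPRY4 fell by 1.11 against 2.11 (difference 1.01 ± 0.14, adjusted p = 2.8e-05). By limma on the deposited FPKM the SPRY4 difference did not pass (adjusted p = 0.239 and 0.165 with pseudocounts of 1 and 0.1). DUSP6, the ERK phosphatase, went from 194 and 195 to 101 and 104 CPM in resistant cells and from 56.1 and 59.6 to 20.7 and 17.7 CPM in parental cells. Resistant JQ1 libraries thus held more DUSP6 than parental DMSO libraries.

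AP-1 and early response genes rose in 13 of 27 cases and fell in 4 in resistant cells (median 0.20, or -0.38 with mitochondrial scaling, where all genes were at -0.56), against 9 and 9 in parental cells. The difference was higher in resistant cells for 12 and lower for 3 (3.62% and 2.88% of all genes), and for 1 each with mitochondrial scaling. FOS went from 2.74 and 2.65 to 12.5 and 11.8 CPM, and EGR1, a zinc finger factor induced by growth signals, from 79.2 and 82.2 to 238 and 221 CPM. Both rose more than in parental cells (differences 0.85 ± 0.20 and 1.0 ± 0.14, adjusted p = 0.0092 and 3.7e-05). KLF5 rose by 1.87 ± 0.09 (difference 0.70 ± 0.13), KLF6 rose by 0.90 ± 0.09 where it fell by 0.22 in parental cells (difference 1.12 ± 0.12), and JUND rose by 1.48 ± 0.12. By limma on the deposited FPKM the KLF5 difference did not pass (adjusted p = 0.194 and 0.211 with pseudocounts of 1 and 0.1). MAFF, a small MAF protein, did not pass in resistant cells (0.20 ± 0.11, adjusted p = 0.139, or -0.38 with mitochondrial scaling) and fell by 1.29 in parental cells.

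Oxidative stress genes under NRF2, the factor that binds antioxidant response elements, rose but less so than in parental cells. Of 29 members 17 rose and 4 fell in resistant cells (median 0.50, or -0.08 with mitochondrial scaling, where all genes were at -0.56), and 21 rose and 4 fell in parental cells (median 0.77). The difference was lower in resistant cells for 11 and higher for 1 (2.88% and 3.62% of all genes). Without 1 library it was lower for 7 to 11, with 7 where resistant DMSO replicate 1 or 2 was left out. TXNRD1, thioredoxin reductase, went from 146 and 128 to 363 and 365 CPM in resistant cells and from 215 and 196 to 854 and 979.6 CPM in parental cells (difference -0.75 ± 0.13, adjusted p = 0.00043). By limma on the deposited FPKM the TXNRD1 difference did not pass (adjusted p = 0.186 and 0.195 with pseudocounts of 1 and 0.1). NQO1, a quinone reductase named after its values were seen, rose by 0.79 against 1.85 (difference -1.06 ± 0.12, adjusted p = 1.3e-06). GCLM, the regulatory subunit of glutathione synthesis, went from 83.5 and 78.8 to 55.0 and 50.2 CPM in resistant cells and from 25.8 and 30.02 to 45.6 and 48.6 CPM in parental cells. GCLM thus fell in one line and rose in the other (difference -1.38 ± 0.16, adjusted p = 7e-06), and the JQ1 libraries of the lines lay close together. SQSTM1, the autophagy receptor p62, went from 244 and 244 to 1676 and 1709 CPM, with only 0.40 of its deposited level rebuilt from transcripts. The ferritin light chain gene FTL went from 2403 and 2454 to 6295 and 7088 CPM, FTH1, the heavy chain, rose by 1.01 ± 0.09 and PRDX1, a peroxiredoxin, by 1.13 ± 0.10, and for none of SQSTM1, FTL, FTH1 and PRDX1 did the difference pass (adjusted p = 0.49, 0.057, 0.13 and 0.74).

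GCLM and TXNRD1 are shown because their promoters hold the antioxidant response element core and their responses differed between the lines by edgeR's test. The TXNRD1 difference did not pass on FPKM. The core was searched as TGACNNNGC on both strands, which can overlap the AP-1 motif TGANTCA, and stood in 16.1% of 27305 genes. Only 21 of 29 members had a promoter entry, too few for a share of the list. The 250 bases before the start follow on GRCh38.p14, for TXNRD1 from one of its 2 windows, with the match in capitals, in both on the opposite strand.
GCLM (chr1:93909431-93909680, minus strand): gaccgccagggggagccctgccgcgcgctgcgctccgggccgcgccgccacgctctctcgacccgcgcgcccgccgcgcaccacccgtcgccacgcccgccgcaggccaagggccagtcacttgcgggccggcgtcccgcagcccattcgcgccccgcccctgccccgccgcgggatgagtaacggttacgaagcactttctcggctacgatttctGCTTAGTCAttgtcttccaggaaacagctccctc
TXNRD1 (chr12:104286782-104287031, plus strand): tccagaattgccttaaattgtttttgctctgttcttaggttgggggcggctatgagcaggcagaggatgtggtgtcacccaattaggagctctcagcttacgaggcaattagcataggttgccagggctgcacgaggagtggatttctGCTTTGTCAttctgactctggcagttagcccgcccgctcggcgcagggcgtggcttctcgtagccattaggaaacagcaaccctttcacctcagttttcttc
The match begins 34 bases before the start in GCLM and 102 bases before it in TXNRD1.

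Of 29 p53 genes 18 rose and 5 fell (median 0.39, or -0.18 with mitochondrial scaling, where all genes were at -0.56). GADD45A, a DNA damage response gene, went from 22.6 and 21.5 to 67.6 and 66.0 CPM in resistant cells and from 30.6 and 31.2 to 38.9 and 38.0 CPM in parental cells (difference 1.28 ± 0.12, adjusted p = 8.7e-08). GADD45B rose by 1.67 ± 0.09 and PLK2 by 1.19 ± 0.10. The ATF4 and unfolded protein list had 11 higher and 7 lower of 29 (median 0.01, and -0.01 with RLE size factors), and 7 higher without resistant DMSO replicate 1. Its asparagine synthetase gene ASNS rose by 1.51 ± 0.10, DDIT3, the factor CHOP, by 1.19 ± 0.11 and SESN2, a stress sensor of mTORC1, by 1.05 ± 0.10, each more than in parental cells (differences 0.63, 1.15 and 0.71, adjusted p = 0.008, 1.8e-05 and 0.0015, that of ASNS lost without resistant DMSO replicate 2 or resistant JQ1 replicate 2, adjusted p = 0.102 and 0.0661). SLC7A5, an amino acid transporter, fell by 1.42. XBP1, a factor of the unfolded protein response, fell by 0.82 against 1.48 in parental cells (difference 0.66 ± 0.15, adjusted p = 0.0052). By limma on the deposited FPKM the XBP1 difference did not pass (adjusted p = 0.283 and 0.311 with pseudocounts of 1 and 0.1).

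Apoptosis genes had 15 of 28 lower and 7 higher (median -0.33), but 18 lower and 1 higher with total counts and 19 lower and none higher with mitochondrial scaling. BCL2L1, the inhibitor BCL-XL, went from 113 and 96.4 to 56.7 and 58.9 CPM, a smaller fall than in parental cells (0.86 against 1.48, difference 0.62 ± 0.14, adjusted p = 0.0066, or 0.0876 and 0.051 without resistant DMSO replicate 2 and resistant JQ1 replicate 2), with 0.74 of its deposited level rebuilt. The death-promoting gene BCL2L11, BIM, rose by 0.93 ± 0.13 against 1.75 (difference -0.83 ± 0.18, adjusted p = 0.0053), and not past the threshold on FPKM (0.38, adjusted p = 0.198).

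Metabolic lists leaned upward with TMM scaling. With mitochondrial scaling, the second median given, they were under 0 but above the -0.56 of all genes. Of 33 cholesterol and fatty acid synthesis genes 19 rose and 4 fell (median 0.37, or -0.19), and of 36 hypoxia and glycolysis genes 20 rose and 5 fell (median 0.42, or -0.16). LSS, lanosterol synthase, went from 59.5 and 57.2 to 129 and 133 CPM, and FASN, fatty acid synthase, from 251 and 241 to 496 and 508 CPM. INSIG1, which holds back sterol synthesis, rose by 0.86 ± 0.08, less than in parental cells (difference -0.75 ± 0.12). LDHA, lactate dehydrogenase, rose by 0.98 ± 0.10 and ALDOC, an aldolase, by 1.22 ± 0.11. Autophagy and lysosome genes rose in 15 of 44 cases and fell in 7 (median 0.12, or -0.08 with total counts and -0.46 with mitochondrial scaling), with MAP1LC3B of the autophagosome membrane at 1.03 ± 0.09, the sialidase NEU1 at 0.92 ± 0.09 and the cathepsin CTSS at -1.65 ± 0.11. Among 13 ABC transporters 7 rose and 2 fell (median 0.30, or -0.28 with mitochondrial scaling), ABCC10 from 20.1 and 20.6 to 43.9 and 46.9 CPM and ABCA3 from 2.12 and 2.58 to 7.83 and 7.52 CPM. Glioma stem cell and neural factors had 7 of 22 lower and 2 higher (median -0.18). None was higher with total counts or without resistant DMSO replicate 1, resistant JQ1 replicate 1 or resistant JQ1 replicate 2, and 1 was without resistant DMSO replicate 2. Among those that fell were NES, nestin, at -1.11 ± 0.09 and GLI2 at -2.09 ± 0.31. The GLI2 call ended on FPKM with a pseudocount of 1 (adjusted p = 0.144). Cereblon ligase genes had 3 of 16 higher, 0 or 1 without a resistant library, and 3 lower (median -0.02), and CRBN did not pass (0.19 ± 0.10, adjusted p = 0.133).

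**Figure D3:**
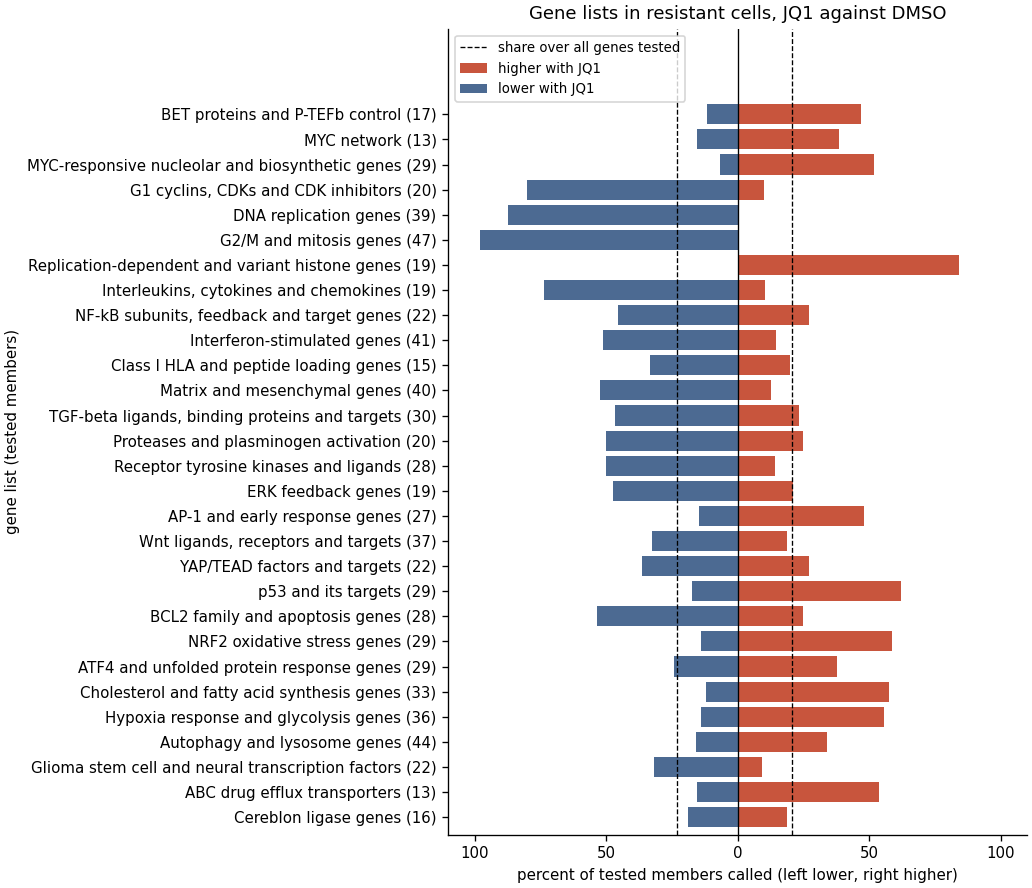
Percent of tested members of each of 29 gene lists that passed the test in resistant cells, lower with JQ1 to the left and higher to the right, with dashed lines at the shares over all genes, 23.1% and 20.8%. The lower bars of the G2/M and replication lists and the higher bar of the histone list extend furthest from the dashed lines.

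Several genes outside the pathway lists were among the 12 largest falls and rises of protein-coding genes with a mean of at least 10 CPM. AQP9, an aquaglyceroporin, went from 19.7 and 19.5 to 1.19 and 1.26 CPM, and ARHGAP31, a regulator of RAC and CDC42, from 30.8 and 30.4 to 2.15 and 2.97 CPM. KIAA1644 fell by 3.37, PALMD by 2.87 and GLIPR1 by 2.81 on the log2 scale. PTPRU, a receptor phosphatase, went from 30.0 and 29.9 to 3.98 and 4.44 CPM and was at most 1.69 CPM in the parental libraries. PSG4 fell by 3.37 against 0.99 in parental cells (difference -2.38 ± 0.20, adjusted p = 1.6e-08), but its near-identical relatives make the placing of its reads uncertain. Among the rises, PEG10, a gene derived from a retrotransposon, went from 95.2 and 94.0 to 1019 and 977 CPM, less than in parental cells (3.40 against 4.34, difference -0.94 ± 0.12, adjusted p = 9e-06). SAT1, which acetylates polyamines for export, went from 25.9 and 25.7 to 187 and 176 CPM. CPA4, a carboxypeptidase, went from 83.5 and 96.3 to 617 and 607 CPM, and VGF, a neuropeptide precursor, from 93.2 and 95.3 to 518 and 521 CPM, both more than in parental cells (differences 0.79 ± 0.13 and 1.35 ± 0.14). TUBB3, a beta tubulin known from neurons and many tumours, went from 312 and 314 to 1879 and 1893 CPM. With it the summed neuron markers went from 354 to 365 TPM in DMSO to 1672 to 1982 TPM in JQ1, almost all of it TUBB3 (327 and 319 to 1954 and 1644 TPM). Of the other neuron markers SNAP25 stood at 15.3 and 15.0 against 3.38 and 3.47 TPM, SYT1 at 5.65 and 5.51 against 4.78 and 4.06 TPM, MAP2 at 3.02 and 2.51 against 5.85 and 6.22 TPM and GAD1 at 13.6 and 11.8 against 13.6 and 13.9 TPM. STMN2 was at 0 and RBFOX3 and SLC17A7 were below 1 TPM in the 4 libraries.

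The response differed between the lines for 67 of the 138 genes named in the text, but with mitochondrial scaling 35 of these differences did not pass, and with the deposited FPKM 25 (pseudocount 1) or 29 (pseudocount 0.1) did not. With neither pseudocount did it pass for HEXIM1, MYC, NPM1, RRP12, RBL2, HIST1H2AC, IL33, THBD, HGF, PDGFRB, SPRY4 and KLF5. The same held for TXNRD1, BCL2L1, BCL2L11, ASNS, SESN2, XBP1, AQP9, PALMD, GLIPR1, TIMP3, RASAL2 and PQBP1. The difference count over all genes, 1241, was 335 with mitochondrial scaling, and 739, 805, 645, 548, 714 and 610 without parental DMSO replicate 1, parental JQ1 replicate 1, resistant DMSO replicates 1 and 2 and resistant JQ1 replicates 1 and 2. METTL7B went from 44.4 and 49.3 to 112 and 115 CPM in resistant cells and from 35.0 and 35.0 to 28.2 and 27.2 CPM in parental cells (difference 1.61 ± 0.12, adjusted p = 3.4e-09). RXRA, the partner of many nuclear receptors, fell by 1.84 against 0.40 (difference -1.44 ± 0.16, adjusted p = 7e-07), and MCF2L, a guanine nucleotide exchange factor, rose by 0.66 against 2.25 (difference -1.59 ± 0.15, adjusted p = 8e-07). Of 19093 genes tested 98 passed in opposite directions, 55 higher in resistant and lower in parental cells and 43 the reverse. The difference passed for each of these genes, which opposite calls in the same fit make nearly certain, so it adds no support. Of these, C6orf48, BPGM, PQBP1 and RASAL2 rose in resistant cells by 0.43 to 0.66, with 0.72 of PQBP1 and 0.57 of RASAL2 rebuilt, and the first 3 were below 0 with mitochondrial scaling. KYNU, kynureninase, went from 101 and 98.4 to 66.2 and 62.8 CPM in resistant cells and from 91.7 and 77.3 to 114 and 130.0 CPM in parental cells (difference -1.16 ± 0.13, adjusted p = 1.1e-06). SLC12A8 fell by 0.62 ± 0.17 and did not pass without resistant DMSO replicate 2 (adjusted p = 0.138). TIMP3, a metalloproteinase inhibitor bound to matrix, was at 0.200 and 0.191 against 0.431 and 0.420 CPM in resistant cells and at 46.0 and 43.6 against 29.1 and 30.2 CPM in parental cells. Its rise in resistant cells thus concerned a level below that of every parental library and did not pass without any one of the 4 resistant libraries (adjusted p = 0.075 to 0.0831).

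**Figure D4:**
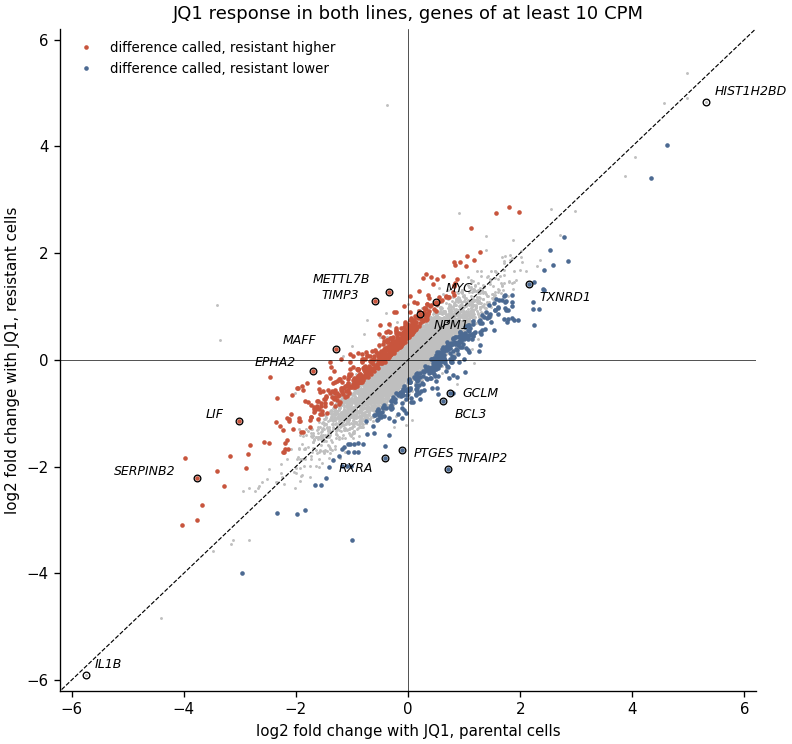
Log2 fold change with JQ1 in parental (x axis) and resistant cells (y axis) for 8864 genes with a mean of at least 10 CPM over the 8 JQ1 and DMSO libraries, coloured where the difference between the lines passed (547 higher and 360 lower in resistant cells). IL1B and HIST1H2BD lie near the dashed line of equal change at its ends, and TNFAIP2, GCLM and BCL3 lie in the quadrant of genes lower in resistant and higher in parental cells.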

How the data were processed

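The libraries of 4 resistant samples (2 per group) were compared within 1 fit of 12 polyA RNA-seq libraries from 6 groups. The submitters' processing notes name kallisto, DESeq2 and the build hg19. The authors' deposited estimated counts per transcript (kallisto, per the file headers) were summed to genes through GENCODE gene models and rounded to whole numbers. Of the transcripts, 92.12% were paired with a gene, holding 95.9% to 96.0% of the counts of the resistant libraries. Deposited TPM served for marker levels. The deposited FPKM table gave gene symbols and an alternative test, and 82.0% of 10511 genes with FPKM above 1 in each library had a rebuilt level within 1% of it. The rest can miss transcripts, and 5.85% were below 0.8 of it.

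Genes were tested with edgeR 4.0.16 (quasi-likelihood, TMM scaling, filterByExpr) in R 4.3.3, with Benjamini-Hochberg adjustment over 19093 genes, a threshold of 0.05 and 6 residual degrees of freedom. The biological coefficient of variation was 7.88%. The 4 resistant libraries held 33617240 to 40388589 estimated counts. A permutation test of 2 against 2 libraries cannot reach the threshold. Alternatives were DESeq2 1.42.0, limma 3.58.1 on log2 FPKM, other scalings and filters, a replicate block and leaving out each library. Named genes were the largest changes and differences, opposite calls, the smallest p in each list and a short fixed set, of which part is printed. Members and lists were chosen with earlier results of these data known.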

Additional observations from a re-analysis of the deposited data

Results flagged for a closer look

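For 67 of the genes named in the report the response to JQ1 differed between the lines, by edgeR's test of the difference itself (adjusted p under 0.05). The values below are log2 fold changes in resistant minus parental cells.

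Among growth control and ribosome genes the differences were -0.47 for HEXIM1, 0.58 for MYC, -1.14 for MXD4, 0.64 for NPM1, 0.68 for NOP56, 0.72 for ODC1, 0.62 for RRP12, 1.08 for CCND1, -0.52 for RBL2 and -0.60 for HIST1H2AC. Among secreted signals and NF-kB genes they were 1.36 for CSF3, 1.86 for LIF, -1.76 for IL33, -2.76 for TNFAIP2, -1.59 for PTGES and -1.39 for BCL3. The IL33 difference did not pass without parental JQ1 replicate 2 or resistant JQ1 replicate 2 (adjusted p = 0.0566 and 0.0722).

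Matrix, TGF-beta, YAP and Wnt genes had -0.76 for COL1A2, 1.34 for LTBP1, 1.21 for GDF5, -1.0 for ID2, 1.18 for CTGF, 0.60 for CYR61 and 0.91 for DKK1. Protease genes had 0.95 for PLAU, 0.77 for THBD, 1.55 for SERPINB2, 1.27 for TIMP1, 3.07 for MMP1 and 1.70 for TIMP3. Receptor, ERK and early response genes had 0.86 for HGF, -1.19 for PDGFRB, 1.49 for EPHA2, 1.09 for ETV4, 1.01 for SPRY4, 0.66 for DUSP6, 0.85 for FOS, 1.0 for EGR1, 0.70 for KLF5, 1.12 for KLF6 and 1.49 for MAFF.

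Stress and survival genes had -0.75 for TXNRD1, -1.38 for GCLM, -1.06 for NQO1, 1.28 for GADD45A, 0.62 for BCL2L1, -0.83 for BCL2L11, 0.63 for ASNS, 1.15 for DDIT3, 0.71 for SESN2 and 0.66 for XBP1. The sterol gene INSIG1 had -0.75. Other genes had -1.04 for AQP9, -2.38 for PSG4, -0.53 for PALMD, -0.98 for GLIPR1, -0.94 for PEG10, 0.79 for CPA4, 1.35 for VGF, 1.61 for METTL7B, -1.44 for RXRA, -1.59 for MCF2L, -1.16 for KYNU, 1.15 for RASAL2, -1.43 for SLC12A8, 1.01 for C6orf48, 0.91 for BPGM and 0.87 for PQBP1. The PALMD difference did not pass without any one of 7 of the 8 libraries. By limma on the deposited FPKM the AQP9 difference did not pass (adjusted p = 0.928 and 0.325 with pseudocounts of 1 and 0.1).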

How the results depend on the processing

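The main fit called 8391 genes changed in resistant cells. Each alternative has its own count over the genes it tested, not the part of these calls that was kept. The count was 5548 (62.7% of genes tested) at a mean of at least 10 CPM. By limma on FPKM it was 5541 (35.5%) and 5319 (34.1%) with pseudocounts of 1 and 0.1. It was 2588 against a fold of 1.5 and 9853 (59.7%) when only the compared libraries were fitted. The 3978 higher became 2450 with total counts, 595 with mitochondrial scaling, 2590 and 2513 on FPKM and 985 against the fold. The 4413 lower became 8325 with mitochondrial scaling, 2805 at 10 CPM, 2806 on FPKM (pseudocount 0.1) and 1603 against the fold. The differences between lines, 1241 in the main fit, numbered 335 with mitochondrial scaling, 301 and 236 on FPKM and 104 against the fold. In the same order 58, 187, 146 and 60 were higher and 277, 114, 90 and 44 lower. With only the compared libraries fitted 1695 passed, 864 higher and 831 lower. Leaving out 1 library gave 548 to 1267 differences, 310 to 710 higher and 235 to 557 lower. With mitochondrial scaling the direction turned for CDK9 (-0.023), NCL (-0.088), MAFF (-0.38), CRBN (-0.39), C6orf48 (-0.085), BPGM (-0.058) and PQBP1 (-0.14), and the list medians became -0.38 for BET proteins, -0.44 for the MYC network, -0.34 for nucleolar genes, -0.38 for AP-1, -0.18 for p53, -0.075 for NRF2, -0.57 for ATF4, -0.19 for cholesterol, -0.16 for hypoxia, -0.46 for autophagy and -0.28 for ABC transporters. Total counts turned the medians of the MYC network (-0.057), ATF4 (-0.18) and autophagy (-0.076), RLE and DESeq2 that of ATF4 (-0.0068 and -0.0067). FPKM turned EPHA2 (0.071 and 0.10) and CRBN (-0.072 and -0.075). Leaving out 1 resistant library gave medians of -0.49 to 0.011 for ERK feedback (0.011 without DMSO replicate 2), -0.036 to 0.017 for ATF4 (below 0 without DMSO replicate 1 or 2) and -0.066 to 0.0035 for cereblon genes (above 0 without DMSO replicate 1). Between scalings the log2 fold changes differ by a nearly common shift. Mitochondrial scaling also sets a factor for each library, which can widen the spread between replicates. Mitochondrially encoded mRNA took 1.757% and 2.132% of counts in the resistant DMSO replicates and 2.025% and 1.548% in the parental JQ1 replicates. The part of this in the lost calls, and the cause of the other changes, was not tested. The labels state no pairing by replicate number. The correlation of deviations between resistant DMSO and JQ1 was -0.033 over all genes tested, but genes with few counts can hide a pairing in it. The replicate block gave 8276 genes in resistant cells (3928 higher, 4348 lower) and 1145 differences (642 higher, 503 lower), and kept all 138 named calls and all 67 named differences. Of the least abundant of 5 equal classes of genes (up to 0.331 CPM) 4.82% were higher and 5.73% lower, and the part of depth in this was not tested.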

Other observations

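By class of transcript, 11 of 34 tested small nucleolar RNA genes were higher with JQ1 in resistant cells and none was lower (median 0.93), while of 14470 protein-coding genes 22.9% were higher and 27.6% lower. Most mature small nucleolar RNAs lack a poly(A) tail and lie within introns of other genes, so polyA libraries hold few of them. Of 1610 antisense genes 14.8% were higher and 9.13% lower. Whether counting used strand is not given in the sources used here, so reads of an antisense gene and its partner may not be told apart. In the most abundant of 5 equal classes of genes, from 47.7 CPM, 34.6% were higher and 25.2% lower, whereas in the middle class 24.1% were higher and 33.8% lower.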
